A study of Homo sapiens with 6 samples.

Results

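EGFR, its 3 receptor relatives ERBB2, ERBB3 and ERBB4, and 2 genes that restrain EGFR, ERRFI1 and LRIG1, were described by the N6-methyladenosine (m6A) peaks that touch their gene bodies. The rule names the genes and uses no peak values, though the genes were chosen with earlier results of these data known, and a peak counted for a gene if at least 1 of its bases lay within the RefSeq body on GRCh38. The 6 genes held 12 of the 17375 peaks in the 3 peak lists, with 1 in shTRA2A, 4 in shMETTL3 and 7 in shNC. The lists come from methylated RNA immunoprecipitation sequencing of U-251 MG, an established human glioblastoma cell line, in which an m6A antibody enriches fragments of total RNA that are sequenced beside input RNA. Cells with a short hairpin RNA against TRA2A, an RNA-binding splicing regulator, or against METTL3, the methyltransferase that lays down m6A on messenger RNA, were each set against cells with the control hairpin shNC. The labels give no other genotype, treatment or time, and they do not say whether any line is a single clone. Each condition had an immunoprecipitated and an input library and gave 1 peak list, so replicates are lacking for every difference below and conditions were not tested against each other.

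The ErbB receptors are membrane tyrosine kinases that pair after ligand binding and signal through RAS and PI3-kinase. EGFR binds ligands of the EGF family, ERBB3 and ERBB4 bind neuregulins, and ERBB2 has no known ligand of its own and acts as a partner. ERRFI1 (also called MIG6) is an inducible protein that binds the EGFR kinase domain and blocks it, and LRIG1 is a membrane protein that promotes breakdown of ErbB receptors. EGFR is often amplified in glioblastoma. An m6A mark is laid on RNA mostly near stop codons and in 3′ untranslated regions. A peak needs both enough of the transcript and enough of the mark, and these cannot be told apart from peak lists.

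The lists held 2736 peaks in shTRA2A, 5433 in shMETTL3 and 9206 in shNC, and they touched the bodies of 9.54%, 17.1% and 21.9% of 20056 coding genes. Each peak carries a score from the authors' caller whose scale is not stated, so a score is used here only for its place within its own list. The median score was 8.0 in shTRA2A, 8.40 in shMETTL3 and 12.4 in shNC. The depth of the libraries is unknown here. Intervals given with a share are exact Clopper-Pearson 95% intervals, which cover counting error only and treat peaks or genes as independent. The shares of the small sets of pathway genes further below carry none. Of 6 glial and mesenchymal marker genes, 2 had an shTRA2A peak, 3 an shMETTL3 peak and 3 an shNC peak. SOX9 and NES had a peak in every list, GFAP in shMETTL3 alone and CD44 in shNC alone. VIM and S100B had no peak in any list, and neither had any of 9 marker genes of immune, endothelial, neuronal and epithelial cells. A missing peak does not show that a transcript is absent.

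Of the 6 genes, 1 had an shTRA2A peak, 3 an shMETTL3 peak and 2 an shNC peak. With so few genes the intervals of these shares, 0.421 to 64.1%, 11.8 to 88.2% and 4.33 to 77.7%, all contain the share over all coding genes. EGFR was the gene of the 6 with a peak in every list. ERBB2 and LRIG1 had peaks in shMETTL3 alone, ERRFI1 had a peak in shNC alone, and ERBB3 and ERBB4 had none. All 12 peaks were single blocks 50 to 200 nt wide, and all lay on the strand of their gene.

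**Figure D1:**
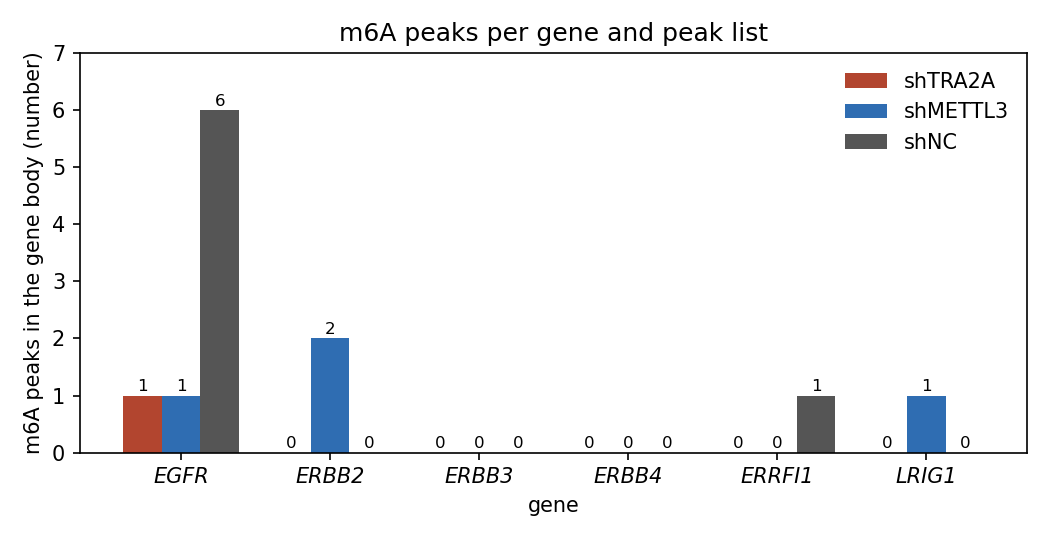
Number of m6A peaks (vertical axis) touching the body of each of the 6 genes (horizontal axis) in the shTRA2A, shMETTL3 and shNC lists, with the count above each bar. EGFR has 1, 1 and 6 peaks, and no other gene has more than 2 in a list.

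EGFR (gene ID 1956, chr7:55019017-55211628, plus strand) had 1 shTRA2A peak, 1 shMETTL3 peak and 6 shNC peaks. The shTRA2A peak lay at chr7:55206264-55206338, was 75 nt wide and had a score of 7.59, rank 2069 of 2736. The shMETTL3 peak lay at chr7:55206314-55206388, was also 75 nt wide and had a score of 5.41, rank 5060 of 5433. Both were thus in the lower part of their lists, at the 24.4th percentile in shTRA2A and the 6.87th in shMETTL3.

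The shNC peaks formed a cluster of 1150 nt, 0.597% of the length of the gene body, of which 675 nt were inside a peak. In the direction of transcription, the first lay at chr7:55205264-55205338, was 75 nt wide and scored 13.9. The second, at chr7:55205514-55205713, was the widest of the cluster with 200 nt and scored 15. The third, at chr7:55205789-55205888, had the highest score of the cluster, 15.4, over 100 nt. The fourth peak, at chr7:55205914-55205988, scored 12.2 over 75 nt. The fifth peak, at chr7:55206164-55206213, was the narrowest with 50 nt and the lowest with a score of 10.5. The last, at chr7:55206239-55206413, scored 14.3 over 175 nt. The cluster therefore had no dominant peak: 4 of the 6 scores were above the median of the control list, and they spanned the 31.7th to the 65.6th percentile. The gaps between neighbouring peaks were 175, 75, 25, 175 and 25 nt.

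Both knockdown peaks of EGFR lay on the last control peak and nowhere else in the cluster. Each lay inside that peak over its full 75 nt, and the 25 nt at chr7:55206314-55206338 were inside a peak in all 3 lists. The other 5 control peaks, the 2 with the highest scores among them, had no overlapping peak in either knockdown list. The nearest was the fifth, which ended 50 nt before the shTRA2A peak and 100 nt before the shMETTL3 peak. All 8 EGFR peaks started at whole multiples of 25 nt from the first, so their edges lie on a common grid and resolve position to no better than that step.

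**Figure D2:**
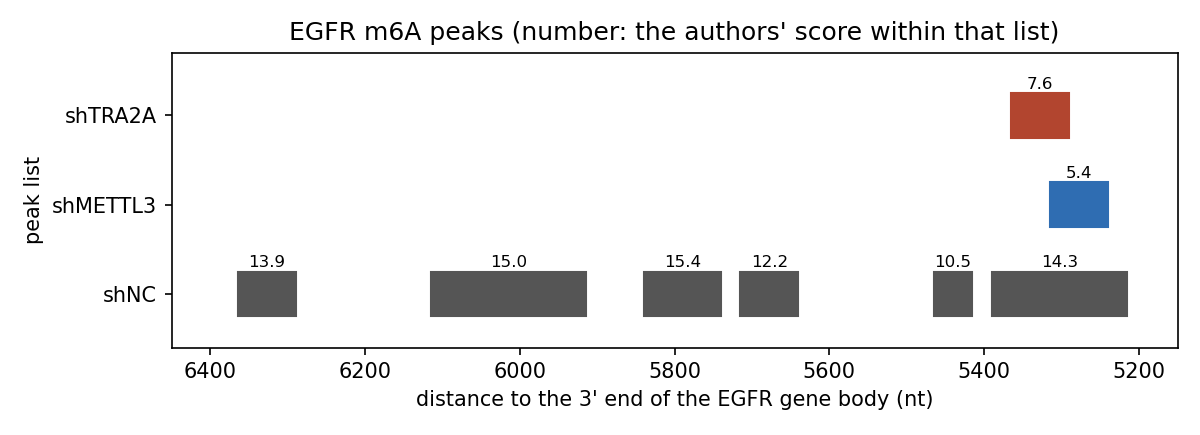
EGFR peaks drawn to scale by their distance to the 3′ end of the gene body in nt (horizontal axis, transcription from left to right), for the shTRA2A, shMETTL3 and shNC lists (rows). The number above each peak is the authors' score, which is not comparable between lists. The single peaks of shTRA2A and shMETTL3 both sit over the last of the 6 shNC peaks.

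The EGFR control peaks overlapped an shTRA2A peak in 1 of 6 cases, 16.7% (0.421 to 64.1%), and an shMETTL3 peak in 1 of 6. Over all 9206 control peaks the shares were 9.58% for shTRA2A and 17.9% for shMETTL3. The 6 are neighbouring peaks of 1 gene and are not independent, as the interval takes them to be. Even so, the interval is too wide to tell the EGFR share from those of all control peaks. A control peak was found in both knockdown lists in 5.01% of all cases. Of the shTRA2A peaks, 23.8% shared a base with an shMETTL3 peak, as the EGFR peak did. Control peaks with higher scores were found more often, and the EGFR peaks stood in the middle of that range. In the fourth decile from the top, which held 3 EGFR peaks, the last among them, 9.67% of control peaks were found in shTRA2A and 19.3% in shMETTL3. In the seventh decile, which held the fifth EGFR peak, these shares were 3.37% and 8.36%. In every decile that held an EGFR peak, most control peaks were missing from each knockdown list, as 5 of the 6 EGFR peaks were.

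**Figure D3:**
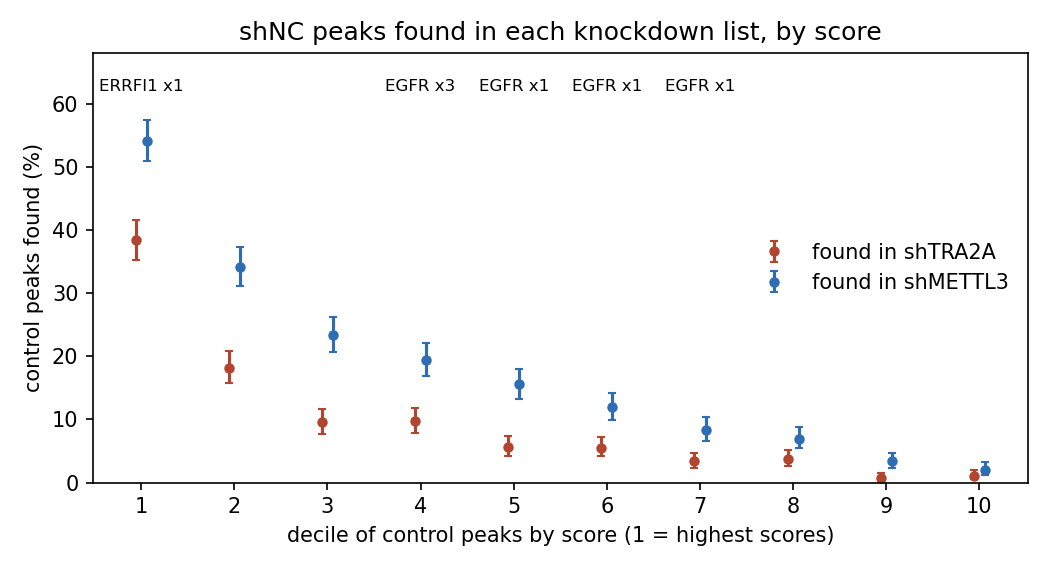
Share of control peaks that overlap a peak of the shTRA2A or shMETTL3 list, in % (vertical axis), by decile of the control score, 1 being the highest (horizontal axis). Points are shares and bars are exact 95% intervals. Labels at the top mark the deciles that hold the ERRFI1 peak and the 6 EGFR peaks. In the top decile 38.4% were found in shTRA2A and 54.1% in shMETTL3, and in the lowest 1.09% and 2.06%.

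Counted by gene, 28.7% of the 4398 genes with a control peak also had a peak in shTRA2A and 48.6% in shMETTL3. EGFR was among the 5.32% of these genes with 6 or more control peaks, and such genes had a knockdown peak more often. The place of EGFR there rests on how its cluster was split, as merging peaks within 100 nt left 3. Of the 86 genes with 6 control peaks, 50 carried an shTRA2A peak, 58.1% (47.0 to 68.7%), and 68 an shMETTL3 peak, 79.1% (69.0 to 87.1%). In 37 of the 86 a control peak itself was overlapped in shTRA2A and in 56 in shMETTL3, and in 29 this held for both lists, as in EGFR. Over all genes with a control peak, 15.8% had one overlapped in shTRA2A and 28.3% in shMETTL3. With exactly 1 peak in each knockdown list, EGFR was among 4 of the 86 genes with these counts. The median over the 86 genes was 1 peak in shTRA2A and 2 in shMETTL3.

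**Figure D4:**
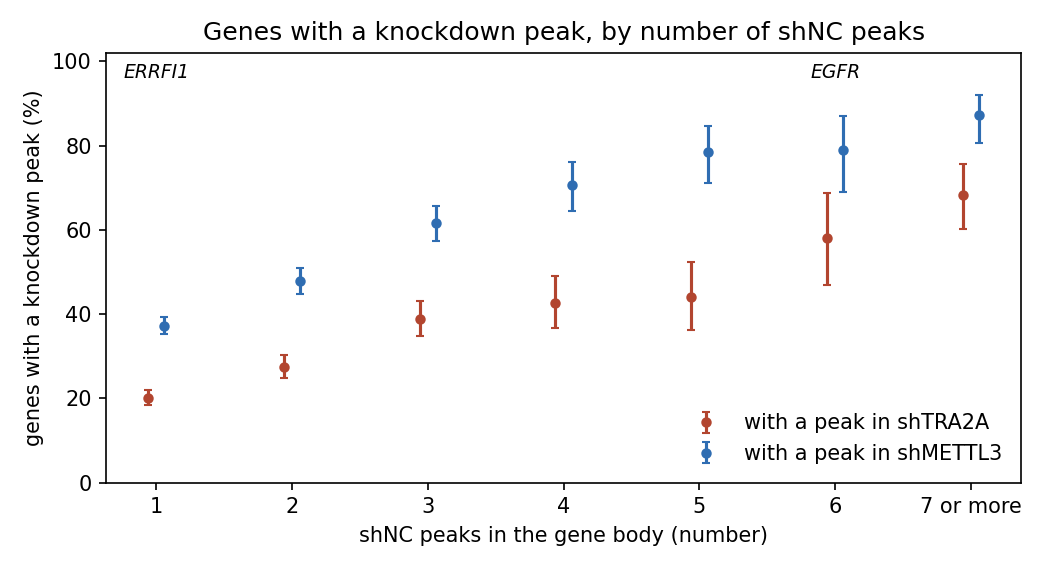
Share of genes with at least 1 peak in the shTRA2A or shMETTL3 list, in % (vertical axis), by the number of shNC peaks in the gene body (horizontal axis). Points are shares and bars are exact 95% intervals. The classes of ERRFI1 (1 control peak) and EGFR (6 control peaks) are marked. The shares are 20.2% and 37.2% for genes with 1 control peak and 58.1% and 79.1% for genes with 6.

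The genes nearest to EGFR in pattern were found by the distance over 6 values, the number of peaks on a log2 scale and the percentile of the best peak in each of the 3 lists, among 6116 other coding genes with a peak. TOPORS, a ubiquitin and SUMO ligase, was the nearest at a distance of 0.417, with 1 shTRA2A, 1 shMETTL3 and 7 shNC peaks. LRP6, a Wnt co-receptor, followed at 0.438 with 1, 1 and 6 peaks. ADNP2, a zinc finger homeobox protein, came next at 0.529 with 1, 1 and 4 peaks. Of these 3, ADNP2 had 1 control peak overlapped in shTRA2A and 1 in shMETTL3, LRP6 had 1 in shTRA2A only and TOPORS 1 in shMETTL3 only.

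All 6 control peaks and both knockdown peaks of EGFR lay in the last part of the gene body, 96.7 to 97.3% of the way along it. They ended 5215 to 6290 nt before its 3′ end. Exons were not used here, so the peaks cannot be placed in the coding region or the untranslated region from these files. A position near the 3′ end was common: of the peaks that could be placed in 1 coding gene on its strand, 24.4% in shTRA2A, 27.0% in shMETTL3 and 34.1% in shNC lay in the last 10% of the body, which includes introns.

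ERBB2 (gene ID 2064, chr17:39688094-39728658, plus strand) had no shTRA2A peak, 2 shMETTL3 peaks and no shNC peak. The first shMETTL3 peak lay at chr17:39700039-39700088, was 50 nt wide and scored 10.0, rank 1651.5 of 5433 with ties averaged. The second lay at chr17:39710368-39710442, was 75 nt wide and scored 9.07, rank 2143. They were 10279 nt apart and stood above the middle of the shMETTL3 list, at the 69.6th and 60.6th percentiles. They lay 29.5% and 55.0% of the way along the gene body, not near its 3′ end as in EGFR. In shTRA2A and shNC the nearest peak to ERBB2 on the chromosome was the same interval in CDK12, 158 kb away, so no peak of either list lay close by.

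LRIG1 (gene ID 26018, chr3:66378797-66501121, minus strand) had no shTRA2A peak, 1 shMETTL3 peak and no shNC peak. The shMETTL3 peak lay at chr3:66385997-66386071, was 75 nt wide and scored 4.26, rank 5279 of 5433. It was thus among the weakest of its list, at the 2.84th percentile, and ended 7200 nt before the 3′ end of the body, 94.1% of the way along. The nearest peaks elsewhere on the chromosome lay in MAGI1, 900.2 kb away in shTRA2A and 340.1 kb away in shNC.

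Knockdown peaks in genes that lacked a control peak, as in ERBB2 and LRIG1, were common. Of the 15658 coding genes with no control peak, 8.19% had an shMETTL3 peak and 4.15% an shTRA2A peak, and these genes made up 37.5% of the shMETTL3 and 34.0% of the shTRA2A peak genes. Of all peaks, 66.2% in shTRA2A and 67.3% in shMETTL3 lay off every control peak. In the fourth decile of the shMETTL3 list, which held both ERBB2 peaks, 40.1% of peaks were on a control peak. In its lowest decile, which held the EGFR and LRIG1 peaks, 17.8% were. Among the weak shMETTL3 peaks the EGFR peak was thus of the less common kind and the LRIG1 peak of the more common kind. In the eighth decile of the shTRA2A list, which held its EGFR peak, 18.8% were on a control peak.

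**Figure D5:**
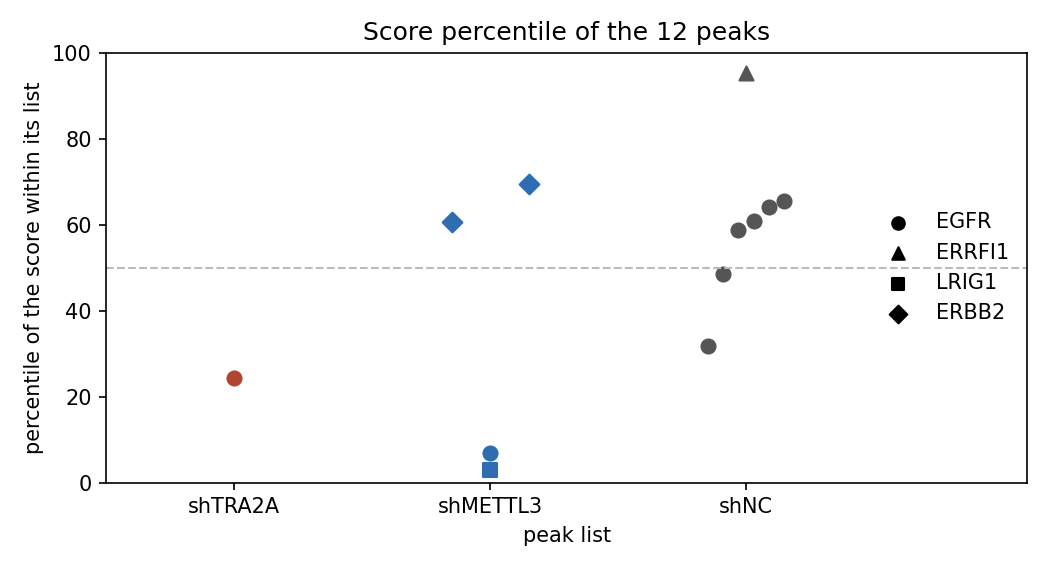
Percentile of the score within its own list (vertical axis) for each of the 12 peaks, by list (horizontal axis) and gene (marker shape); the dashed line marks the middle of a list. The ERRFI1 peak of shNC is at the 95.3rd percentile, and the EGFR and LRIG1 peaks of shMETTL3 are at the 6.87th and 2.84th.

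ERRFI1 (gene ID 54206, chr1:8011727-8026309, minus strand) had neither an shTRA2A nor an shMETTL3 peak and had 1 shNC peak. The control peak lay at chr1:8012947-8013071, was 125 nt wide and scored 41.9, rank 436 of 9206. It was the strongest of the 7 control peaks described here by its place in the list, at the 95.3rd percentile, and ended 1220 nt before the 3′ end of the gene body. Of the control peaks in the same top decile, 38.4% (35.2 to 41.6%) were found in shTRA2A and 54.1% (50.8 to 57.4%) in shMETTL3. Genes with exactly 1 control peak made up 49.2% of those with any, and of these 2165 genes 20.2% had a peak in shTRA2A and 37.2% in shMETTL3. Of all genes with a control peak, 42.9% had no peak in either knockdown list, as ERRFI1 had none.

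Just outside ERRFI1, 2 peaks lay within 1000 nt of the upstream end of its body, both on the plus strand, opposite to the gene. An shMETTL3 peak at chr1:8026813-8026887 began 504 nt beyond it and scored 8.10, and an shNC peak at chr1:8027088-8027212 began 779 nt beyond it and scored 9.40. They did not overlap each other. Both touched the body of ERRFI1-DT, a long non-coding RNA gene that begins beside ERRFI1. None of the 12 peaks touched any of the 9 RefSeq promoter windows listed for the genes, which run from 250 bases before to 50 bases after a start site, so no sequence is shown. ERBB3 had no window in that table.

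ERBB3 (gene ID 2065, chr12:56080108-56103505) had no peak in any list, and neither had ERBB4 (gene ID 2066, chr2:211375717-212538802). Peaks of shTRA2A and shNC lay 17.5 kb and 9.33 kb from ERBB3, in ZC3H10 and PA2G4, and the nearest shMETTL3 peak lay 248 kb away in STAT2. ERBB4 has the longest body of the 6, 1163086 nt, and the nearest peaks were over 1000 kb away in every list. Long bodies were touched more often. Among 3356 coding genes with a body of at least 100 kb, as EGFR, ERBB4 and LRIG1 have, 16.6% had an shTRA2A peak, 27.2% an shMETTL3 peak and 33.9% an shNC peak.

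The other genes of the pathway are given by role, against the 21.9% of all coding genes with a control peak and the shares of 28.7% in shTRA2A and 48.6% in shMETTL3 over genes with a control peak. These lists were chosen with earlier results of these data known, and the coding genes were not filtered by expression. A higher share in a list was therefore not tested as an enrichment of m6A. Of 11 ligand genes of the family, 3 had a control peak, 27.3% against 21.9% of all coding genes, and of these 1 had an shTRA2A peak and none an shMETTL3 peak. TGFA, which encodes the EGFR ligand TGF-alpha, had 1 shTRA2A, no shMETTL3 and 3 shNC peaks, and 1 of the 3 was overlapped in shTRA2A. HBEGF, another EGFR ligand, and NRG1, a neuregulin that binds ERBB3 and ERBB4, each had 2 shNC peaks and none in the knockdown lists. NRG2, a related neuregulin, had 1 shMETTL3 peak and no other, and is named after its values were seen. The other 7 ligand genes, EGF and AREG among them, had no peak in any list.

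Of 17 adaptors and proximal effectors, 12 had a control peak, 70.6% against 21.9% of all coding genes, and of these 2 had a peak in shTRA2A, 16.7%, and 6 in shMETTL3, 50%. PIK3R1, the regulatory subunit of PI3-kinase, had 3 shMETTL3 and 6 shNC peaks and no shTRA2A peak, and 3 of the 6 were overlapped in shMETTL3. It had as many control peaks as EGFR. PIK3CA, a catalytic subunit, had 1 peak in shMETTL3 and 1 in shNC, which overlapped. CRKL, an SH2 and SH3 adaptor, had 2 shTRA2A, 1 shMETTL3 and 3 shNC peaks. SOS1 and SOS2, exchange factors that load RAS with GTP, had 4 and 1 shNC peaks and NCK1, an adaptor, had 3, with none in the knockdown lists.

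Of 20 negative regulators other than ERRFI1 and LRIG1, 13 had a control peak, 65% against 21.9% of all coding genes, and of these 2 had a peak in shTRA2A, 15.4%, and 7 in shMETTL3, 53.8%. SOCS4, a suppressor of cytokine signalling that also acts on EGFR, had 1 shTRA2A, 1 shMETTL3 and 3 shNC peaks, and its best control score of 41.2, rank 462, was close in the list to that of ERRFI1. Of its 3 control peaks, 1 was overlapped in shTRA2A and 1 in shMETTL3. SOCS5, its close relative, had no shTRA2A, 2 shMETTL3 and 4 shNC peaks. SPRED1, an inhibitor of RAS signalling, DUSP4, a phosphatase of MAP kinases, and RNF41, a ubiquitin ligase for ERBB3, had 2, 2 and 1 shNC peaks and none in the knockdown lists. CBLB, a ubiquitin ligase of activated receptors, and SPRY2, an inhibitor of RAS signalling, each had 1 shTRA2A peak and no other, and are named after their values were seen.

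Of the relatives of LRIG1, LRIG3 had no shTRA2A peak, 2 shMETTL3 and 2 shNC peaks, both of the control peaks being overlapped in shMETTL3, and LRIG2, named after its values were seen, had 1 shMETTL3 and 1 shNC peak that did not overlap. LRIG2 had no shTRA2A peak either, as is the case for most genes: 28.7% of genes with a control peak and 4.15% of those without, such as LRIG1, had one.

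Of 24 other receptor tyrosine kinases, 6 had a control peak, 25%, against 21.9% of all coding genes. Of the 6, an shTRA2A peak was present in 2 and an shMETTL3 peak in 3. MET, the receptor of hepatocyte growth factor, had 1 shTRA2A, no shMETTL3 and 3 shNC peaks, with a best control score of 82.2 at rank 84, well above the best EGFR score of 15.4 at rank 3163. IGF1R, the receptor of insulin-like growth factor 1, had 1, 4 and 4 peaks, and EPHA3, an ephrin receptor, had 0, 2 and 1. EPHB2, another ephrin receptor, had 4 shNC peaks and FGFR1, a fibroblast growth factor receptor, had 1, with none in the knockdown lists. INSR, the insulin receptor, and DDR1, a collagen receptor, resembled ERBB2 in having an shMETTL3 peak and no control peak, with 1 peak each, and are named after their values were seen. EGFR had more control peaks, as deposited, than any of these 24 receptors. Its 6 lay in 1 cluster, and merging peaks within 100 nt left 3. Merged counts were not made for the 24 receptors. The 16 receptors that had no peak in any list match ERBB3 and ERBB4.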

How the data were processed

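The deposited files are 12-column BED peak lists without a header. Per the labels, shTRA2A, shMETTL3 and shNC each had 1 immunoprecipitated library and its input, 6 in all. GRCh38, HISAT2 2.2.1, featureCounts 2.0.1 and SAMtools are named in the submitters' processing notes; for the peak caller and its thresholds, the sources used here give nothing. Column 5 is the authors' score per peak, used as deposited, for ranks within a list only. Of 4 lists, 3 match a condition; the other equals the shTRA2A list byte for byte and was not used.

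Genes were bodies of 20056 coding genes in RefSeq (GRCh38.p14), strands those of its promoter table. A peak on either strand counted as touching a body. Every peak was taken as its span from start to end, with any gaps between its blocks included. A control peak was found if a knockdown peak of the same strand overlapped it by 1 base or more. The code for this was tested on simulated data, and bedtools 2.31.1 gave the same answer on the same spans (0 control peaks differed). Python 3.11.15, pandas 2.3.3 and scipy 1.17.1 were used. Coordinates count from 1.

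All 6 genes are named whatever their values. From each list of related genes, up to 3 with the highest control score among those with a knockdown peak and up to 3 among those without are named, and the 3 coding genes most like a gene with peaks in at least 2 lists. The genes, lists and rules were chosen with earlier results of these data known. 9 alternatives were run.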

Additional observations from a re-analysis of the deposited data

How the results depend on the processing

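The counts for the 6 genes depended on weak knockdown peaks and on EGFR control peaks near the middle of their list. In the better-scoring 50% of each list, 0 of the genes had an shTRA2A peak and 1, ERBB2, an shMETTL3 peak, and 0 of 5 remaining control peaks of the genes, or 0 of 4 of EGFR, overlapped a peak of either list. With each list limited to its best 2736 peaks, 1 gene, ERBB2, had an shMETTL3 peak and 1, ERRFI1, a control peak, no EGFR control peak was left to be found, and 0 control peaks of the genes overlapped a peak of either knockdown list. The shTRA2A list is the shortest and stayed whole there, so EGFR kept its shTRA2A peak. Apart from that, these 2 settings remove peaks by construction. With the body extended by 1000 nt, 4 genes had an shMETTL3 peak in place of 3, and the genes held 8 control peaks in place of 7. Both additions were the plus-strand peaks in ERRFI1-DT, on the strand opposite to ERRFI1. Under the other alternatives the counts for EGFR and for all 6 genes were as reported, and with neighbouring peaks merged 1 of 3 merged EGFR control peaks was found in each list. The share of all control peaks found in shTRA2A and shMETTL3 was 7.20% and 14.5% with midpoints within 100 nt. It was 12% and 19.0% in the better-scoring 50%, 22.1% and 25.5% in the best 2736, and 10.7% and 19.6% after merging. With single-block peaks of at most 1000 nt, which left 7812 control peaks, it was 8.54% and 16.7%. At 50% of the shorter peak it was 17.1% for shMETTL3. No paired analysis was possible because each condition has 1 peak list. Depth per library is unknown, so whether a missing peak reflects depth was not tested.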
